A study of Mus musculus with 14 samples.

Results

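The strain difference after observational fear conditioning was taken as AKR minus B6N in 6 of the 14 libraries of the series. All 17994 genes that passed an expression filter in those 6 libraries, out of 53465 in the count table, entered the comparison. The libraries were chosen by their labels. Messenger RNA had been counted by bulk sequencing of tissue from the anterior cingulate cortex, a region of midline frontal cortex that is needed for learning fear by watching another animal. The groups were 3 libraries of AKR/J mice (AKR) and 3 libraries of C57BL/6NJ mice (B6N), both inbred strains. In both groups the mice had gone through observational fear conditioning (OFL in the labels), so the conditioning is shared and only the strain differs. Naive mice of the same strains, with 4 libraries each, served only to set another strain difference beside this one. No genetic change other than the strain is named in the labels, and age and sex are not given there.

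In observational fear conditioning a mouse watches another mouse receive foot shocks and acquires fear without being shocked itself. The series title links this behaviour to ARNT2 and to somatostatin interneurons. ARNT2 is a bHLH-PAS transcription factor that works as the general partner of other factors of its family, among them the activity-induced NPAS4. Somatostatin interneurons are inhibitory neurons that act mainly on the dendrites of pyramidal cells.

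Total counts were 13487311 to 14396289 in AKR and 14063573 to 14526253 in B6N, with 25959 to 26366 genes counted at least once in a library. Spearman correlations across genes were 0.995 to 0.996 within AKR, 0.994 to 0.996 within B6N and 0.982 to 0.985 between the strains. Nothing in the labels ties each library to an animal of its own, so the p-values reflect the spread among these libraries, which may be technical. Cortical markers were present in every library, with Slc17a7, the glutamate transporter of cortical excitatory neurons, at 735 ± 28.1 CPM in AKR and 710.3 ± 6.26 in B6N (SD, n = 3). The choroid plexus markers Ttr and Folr1 had 0 to 3 counts in a library and the striatal receptor gene Drd2 had 4 to 8. Xist had 0 to 2 counts in each library, while the Y-linked gene Ddx3y stood at 94.8 ± 7.29 CPM in AKR and 96.4 ± 7.08 in B6N (SD, n = 3). Mitochondrial genes took 0.752% to 0.785% of the counts in AKR and 0.775% to 0.85% in B6N. Pseudogenes took 0.33% to 0.345% in AKR and 0.268% to 0.285% in B6N, without overlap.

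Of the 17994 genes tested, 2943 were called at an adjusted p under 0.05, which is 16.4% of them, with 1349 higher in AKR (7.5%) and 1594 lower (8.86%). Adjusted p stands throughout for edgeR's quasi-likelihood test with Benjamini-Hochberg adjustment over all genes tested. Most differences were small, since 1797 of the called genes (61.1%) differed by less than 1.5-fold, and 623 (3.46% of the genes tested) by at least 2-fold. In 5570 genes (31%) the libraries of the strains did not overlap. The median log2 difference over all genes tested was 0.00, and it was 0.44 in absolute size over the called genes. Without B6N replicate 2 the calls numbered 1934, with 813 higher and 1121 lower, and 1887 of them were among the 2943. Of the called genes with a difference of at least 4-fold, 118 were higher and 117 lower in AKR, and 49 of the higher and 10 of the lower were pseudogenes. No gene called in the full comparison changed sign in any of the 12 alternative analyses that tested it. These compared the same 6 libraries or fewer, and 2832 of the called genes did not overlap between the strains. A change of sign was therefore hardly possible.

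**Figure D1:**
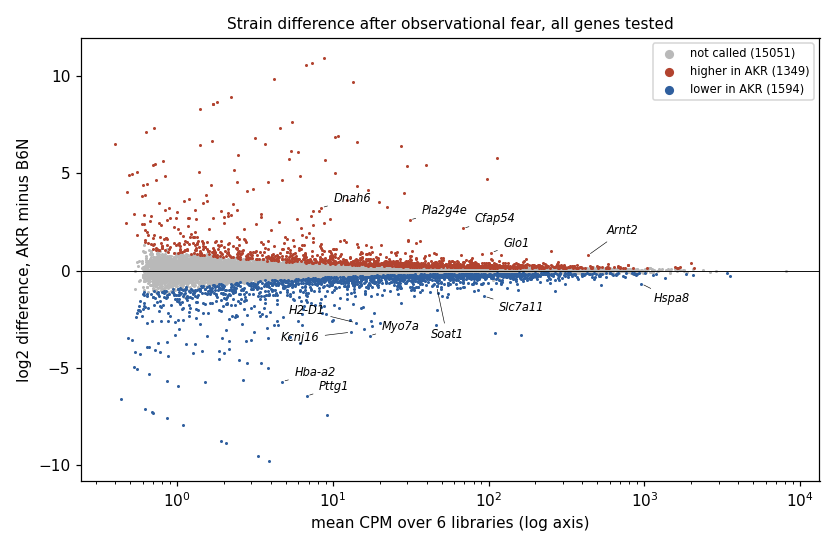
Log2 difference (AKR minus B6N) of all 17994 genes tested against the mean level over the 6 libraries in CPM on a log axis, with 1349 genes called higher in red, 1594 called lower in blue and the rest in grey. Arnt2 and Glo1 stand above the cloud at high levels with log2 differences of 0.78 and 0.92, and Pttg1 lies lowest among the labelled genes at -6.46.

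Arnt2 (ENSMUSG00000015709) lies on the minus strand of chromosome 7, from 84246278 to 84410176 in GRCm38. Its promoter window covers 250 bases before to 50 after the annotated start in RefSeq (GRCm38.p6, chr7:84409989-84410288, minus strand). It is shown because ACGTG is among the letters that pairs of ARNT2 with other factors bind. Other letters that such pairs bind were not searched. The window holds no match to ACGTG on either strand.
Arnt2 promoter: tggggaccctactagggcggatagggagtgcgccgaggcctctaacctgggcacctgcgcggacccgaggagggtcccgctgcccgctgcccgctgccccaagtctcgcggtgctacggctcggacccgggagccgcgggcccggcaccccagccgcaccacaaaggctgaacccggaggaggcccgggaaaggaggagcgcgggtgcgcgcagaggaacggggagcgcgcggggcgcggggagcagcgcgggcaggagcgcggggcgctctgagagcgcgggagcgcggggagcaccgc
AKR libraries held 558, 540.4 and 549.7 CPM of Arnt2 and B6N libraries 322, 311 and 325 CPM. Every AKR library lay above every B6N library, with a gap many times wider than the spread within a strain. The log2 difference was 0.78 (SE 0.04, adjusted p = 2.61e-11), a fold of 1.72. An exon on the opposite strand overlaps 2.78% of its exonic sequence. In naive mice the log2 difference was 0.68, and the test of the difference between both strain differences gave 0.11 (SE 0.05, adjusted p = 0.229).

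Of 19 tested bHLH-PAS factors and partners, 4 were higher in AKR and 1 was lower, a share of 26.3% beside 16.4% over all genes tested. Their median log2 difference was 0.10. Npas1, a bHLH-PAS factor expressed in some cortical interneurons, was measured at 12.7, 10.8 and 12.5 CPM in AKR and 7.9, 8.06 and 7.17 CPM in B6N. The strains did not overlap, and the log2 difference was 0.63 (SE 0.11, adjusted p = 0.00044). Npas4, the activity-induced partner of ARNT2, was counted at 16, 12.2 and 28.6 CPM in AKR and 38.3, 34 and 25.8 CPM in B6N. AKR replicate 3 was higher than B6N replicate 3, so the strains overlapped. Its log2 difference was -0.79 (SE 0.19, adjusted p = 0.0067), and the adjusted p was 0.0505 without B6N replicate 2, 0.111 in a fit of all 14 libraries and 0.281 with DESeq2. The related partner gene Arnt was at 51.3 ± 3.13 CPM in AKR against 45.7 ± 5.16 CPM in B6N (SD, n = 3) and was not called, like the hypoxia-regulated members Hif1a and Epas1. Without AKR replicate 1, B6N replicate 2 or B6N replicate 3, and with DESeq2, 2 members of the list were called higher.

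Sst itself differed little between the strains. Its RefSeq promoter window (GRCm38.p6, chr16:23890795-23891094, minus strand) is shown for the cAMP response element in capitals, through which activity and cAMP drive the gene.
Sst promoter: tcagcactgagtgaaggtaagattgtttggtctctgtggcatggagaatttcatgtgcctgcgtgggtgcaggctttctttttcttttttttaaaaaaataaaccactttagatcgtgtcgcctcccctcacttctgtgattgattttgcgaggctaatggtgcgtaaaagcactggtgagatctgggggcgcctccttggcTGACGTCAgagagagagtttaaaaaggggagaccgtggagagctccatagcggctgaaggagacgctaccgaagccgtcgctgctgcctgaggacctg
AKR libraries held 66.3, 64.8 and 70.4 CPM and B6N libraries 58.9, 59.9 and 60.6 CPM. All AKR libraries were above all B6N libraries, but the gap was narrow. The log2 difference was 0.17 (SE 0.06, adjusted p = 0.0473), and the call ended in 8 of the 12 alternatives, with an adjusted p of 0.189 at most. Among them were the fits without AKR replicate 1 (0.106), AKR replicate 3 (0.189) and each B6N replicate (0.0835, 0.146 and 0.0678). Of 14 tested markers of somatostatin interneurons, 4 were higher in AKR and none was lower, a share of 28.6% beside 16.4% over all genes tested. Their median was 0.06. Crhbp, which binds corticotropin-releasing hormone, was measured at 18.7, 16.8 and 17.8 CPM in AKR and 9.96, 12.8 and 13.8 CPM in B6N, without overlap, for a log2 difference of 0.54 (SE 0.11, adjusted p = 0.00147). Myh8, a myosin heavy chain gene, was low in both strains at 2.65 ± 0.169 and 0.915 ± 0.203 CPM (SD, n = 3) with a log2 difference of 1.53 (SE 0.24). The general markers Calb1, Npy and Reln were not called and stood at -0.01, -0.05 and 0.00. In bulk tissue fewer cells of a type and less RNA per cell cannot be told apart. The somatostatin receptor gene Sstr3 was lower in AKR, at 21.5, 21.5 and 19.5 CPM against 27.2, 28.7 and 29.3 CPM, with no overlap and a log2 difference of -0.45 (SE 0.08, adjusted p = 0.000259). Without AKR replicate 1 or B6N replicate 3, 2 of the somatostatin interneuron markers were called.

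Of 9 tested markers of parvalbumin interneurons 2 were higher in AKR and none was lower, a share of 22.2% beside 16.4% over all genes tested. Pvalb, the calcium buffer of fast-spiking interneurons, was at 37.2, 38.5 and 30.7 CPM in AKR and 27.1, 23.5 and 25.8 CPM in B6N. The strains did not overlap, and the log2 difference was 0.48 (SE 0.09, adjusted p = 0.00044). Kcnc1, a fast potassium channel of these cells, was the other called gene, at 0.28 (SE 0.07), and lost its call without B6N replicate 2 (adjusted p = 0.0651). Vip was at 43.1 ± 1.99 CPM in AKR against 48.2 ± 3.19 CPM in B6N (SD, n = 3) with a log2 difference of -0.16 (adjusted p = 0.106), and it was called only without B6N replicate 1 (0.0376). Among 10 markers of VIP and caudal eminence interneurons, Adarb2 and Npas1 were higher and Htr3a was lower (2 lower without B6N replicate 1), a share of 30%. Htr3a, the ionotropic serotonin receptor that marks this lineage, was measured at 3.04, 2.44 and 4.14 CPM in AKR and 6.73, 7.29 and 6.67 CPM in B6N, a log2 difference of -1.11 (SE 0.17, adjusted p = 8.68e-05). Adarb2, an RNA-binding protein gene of the same lineage, was at 91.9, 90.4 and 93.2 CPM in AKR and 63.5, 64.2 and 62 CPM in B6N. Both genes separated the strains completely, in opposite directions.

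Of 8 markers of LAMP5 and NDNF interneurons, 3 were lower in AKR and none was higher, a share of 37.5% beside 16.4% over all genes tested. Id2, an inhibitor of bHLH factors, was measured at 49.3, 47.7 and 45 CPM in AKR and 74.7, 71.5 and 80.4 CPM in B6N, a log2 difference of -0.67 (SE 0.06, adjusted p = 1.1e-07). Cplx3 and Ndnf had smaller differences, -0.53 and -0.29, and both calls ended without AKR replicate 1 (adjusted p = 0.0813 and 0.267), which left 1 call, as did DESeq2. Lamp5 itself was not called, at 0.12. Among 8 genes of GABA synthesis, transport and breakdown, the vesicular transporter gene Slc32a1 was higher in AKR (0.32, SE 0.07, adjusted p = 0.00459), although 24.9% of its exonic sequence overlaps an exon on the opposite strand. Abat, the enzyme that breaks GABA down, was lower at -0.29 (SE 0.04, adjusted p = 8.03e-05), and the synthetic enzyme gene Gad1 was not called (0.10). Gad2, the other synthetic enzyme, stood at 0.17, with its call lost without AKR replicate 1 (adjusted p = 0.146) or B6N replicate 2 (0.0886).

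**Figure D2:**
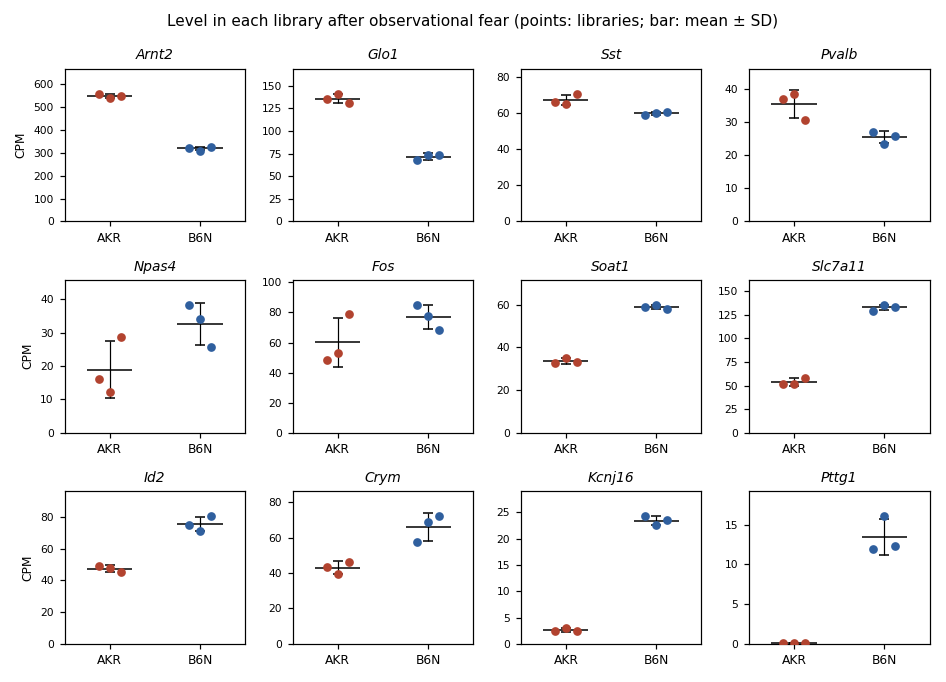
Levels in CPM of 12 genes in the 6 libraries, with 1 point for each library and bars for the mean ± SD over the 3 libraries of a strain. Arnt2, Glo1, Soat1, Slc7a11, Id2, Kcnj16 and Pttg1 show a wide gap between the strains, while AKR replicate 3 lies within the B6N range for Npas4 and Fos.

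Receptor genes for glutamate split in both directions. Of 24 tested subunit genes 4 were higher in AKR and 6 were lower, a share of 41.7% beside 16.4% over all genes tested. Their median was -0.01. Grin2b, the NMDA receptor subunit that prevails early in life, was measured at 1193, 1139 and 1212 CPM in AKR and 1472, 1491 and 1586 CPM in B6N. All AKR libraries were lower, with a log2 difference of -0.36 (SE 0.04, adjusted p = 2.08e-06). Gria1, an AMPA receptor subunit recruited in synaptic potentiation, was lower too, at 323, 316 and 343 CPM against 396, 406 and 419 CPM (-0.31, SE 0.04, adjusted p = 3.04e-05). Grm2, a presynaptic metabotropic receptor that limits glutamate release, was higher in AKR at 48.7, 49 and 59.9 CPM against 42.7, 37.3 and 35.4 CPM (0.45, SE 0.08, adjusted p = 0.000647). Grin2a and Gria2 were not called, at -0.02 and -0.06. The genes called higher numbered 1 without B6N replicate 2 and 2 without AKR replicate 3, and those called lower numbered 3 without AKR replicate 1. Among 12 GABA-A receptor subunits 2 were lower in AKR and none was higher, a share of 16.7% beside 16.4% over all genes tested. Of these, Gabrg3 stood at -0.22, and its call ended without B6N replicate 2 (adjusted p = 0.0948) or B6N replicate 3 (0.0609), while 4 subunits were called lower without B6N replicate 1.

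Calcium channel genes had a median of 0.10, and 31.2% were called, beside 16.4% over all genes tested. The calls went in 1 direction, with 5 of 16 higher in AKR and none lower. The T-type channel genes, which open near the resting potential, were all among them. Cacna1g was at 186, 165 and 192 CPM in AKR and 157, 148 and 139.8 CPM in B6N (0.28, SE 0.06, adjusted p = 0.00152), Cacna1i at 0.26 (SE 0.05) and Cacna1h at 0.22 (SE 0.06). Cacna1h lost its call without AKR replicate 3 (adjusted p = 0.067), and without that library 2 of the 16 genes were called, against 3 without AKR replicate 1, B6N replicate 2 or B6N replicate 3. Cacna1c, the L-type channel gene, was at 187, 175 and 199 CPM in AKR and 189, 178 and 181 CPM in B6N. The strains overlapped and the log2 difference of 0.03 (SE 0.05) was not called. Potassium channel genes were called 5 times in each direction out of 37, a share of 27% beside 16.4% over all genes tested. Kcnj16, an inward rectifier of glia, showed the widest difference, with 2.37, 3.0 and 2.4 CPM in AKR and 24.2, 22.6 and 23.5 CPM in B6N (-3.17, SE 0.12, adjusted p = 2.25e-13). Kcnk1, a leak channel gene, was lower at -0.59 (SE 0.07), and Kcnn1, a calcium-activated channel gene, was higher at 0.43 (SE 0.09). The potassium channel genes called higher numbered 2 without B6N replicate 2, 3 without AKR replicate 1 and 8 without B6N replicate 1. The sodium channel pore gene Scn8a was higher (0.18, SE 0.04, adjusted p = 0.00283) and the accessory subunit gene Scn2b lower (-0.20, SE 0.04, adjusted p = 0.00417). Nrxn3, a presynaptic adhesion gene, was at 501, 459 and 485 CPM in AKR and 450.0, 456 and 445 CPM in B6N and was not called (0.10, adjusted p = 0.133).

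Modulatory receptors were called in both directions. Htr1a, the inhibitory serotonin receptor, was measured at 20.4, 22.2 and 19.8 CPM in AKR and 12.3, 12.5 and 16.1 CPM in B6N, higher in every AKR library (0.61, SE 0.10, adjusted p = 0.000233). Htr1b, its presynaptic relative, went the other way, with 12.6, 12.8 and 12.9 CPM in AKR and 18.1, 19.3 and 20.7 CPM in B6N (-0.60, SE 0.09, adjusted p = 6.34e-05). Oprk1, the kappa opioid receptor for dynorphin, was at 4.3, 3.28 and 4.29 CPM in AKR and 8.24, 9.88 and 10.6 CPM in B6N, with no overlap (-1.28, SE 0.15, adjusted p = 2.98e-06). Its peptide precursor Pdyn was not called (0.08). Crhr1, the receptor for corticotropin-releasing hormone, stood at 0.26 and lost its call without B6N replicate 2 (adjusted p = 0.0565) or B6N replicate 3 (0.0626). Adcyap1, the gene of the peptide PACAP, was lower at -0.34 (SE 0.08, adjusted p = 0.00392), and the neurotensin receptor gene Ntsr2 was lower at -0.43 (SE 0.06). The level of the low dopamine receptor gene Drd5 is not described here, since 48.6% of its exonic sequence overlaps an exon on the opposite strand. Of all 29 monoamine and acetylcholine receptors tested, 2 were higher and 4 lower, a share of 20.7% beside 16.4% over all genes tested. Drd5 is still counted among the lower ones. The higher calls came to 1 without AKR replicate 1 or B6N replicate 2 and with DESeq2, and to 4 with upper-quartile factors or no count filter. Of 32 neuropeptides and their receptors, 4 were higher and 5 lower, a share of 28.1%. The higher calls came to 1 without B6N replicate 2 or with DESeq2 and to 2 without AKR replicate 1, AKR replicate 3 or B6N replicate 3. The lower calls came to 3 without AKR replicate 1 or B6N replicate 2.

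Endocannabinoid genes were called higher 5 times and lower once among 11 tested, a share of 54.5% beside 16.4% over all genes tested. Pla2g4e, the calcium-dependent enzyme that makes precursors of anandamide, had the widest difference with 53.8, 53.5 and 52.8 CPM in AKR and 9.89, 7.43 and 8.97 CPM in B6N. No library came near those of the other strain, and the log2 difference was 2.60 (SE 0.09, adjusted p = 2.5e-14). Dagla, which makes 2-arachidonoylglycerol, was at 132, 130.0 and 134 CPM against 119.7, 112 and 102 CPM (0.24, SE 0.05, adjusted p = 0.00388). Faah, the enzyme that degrades anandamide, stood at 0.22 and lost its call without B6N replicate 2 (adjusted p = 0.0824). Naaa, an acid amidase of lysosomes, was lower at 12.9, 12 and 13.3 CPM against 23.7, 21.3 and 23.8 CPM (-0.85, SE 0.09, adjusted p = 6.75e-07). The cannabinoid receptor gene Cnr1 was not called (0.00). Without B6N replicate 2, 2 of the 11 genes were called higher, and 3 without AKR replicate 1 or AKR replicate 3.

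Activity-induced genes were read in libraries taken after conditioning, and none of 26 immediate early genes was called higher in AKR. Called lower were 4, namely Dusp6, Nr4a3, Npas4 and Fos, and the median was -0.16. The share called was 15.4%, beside 16.4% over all genes tested. Fos was measured at 48.2, 52.9 and 79 CPM in AKR and 84.8, 77.8 and 68.6 CPM in B6N. AKR replicate 3 was higher than B6N replicates 2 and 3, and the log2 difference of -0.36 (SE 0.12, adjusted p = 0.0481) lost its call in 8 alternatives, up to an adjusted p of 0.529. Among these were the fits without AKR replicate 1 (0.252), AKR replicate 2 (0.167), B6N replicate 1 (0.109) and B6N replicate 2 (0.164). Summed over the list, AKR libraries held 1469.6 to 1956 CPM and B6N libraries 1613 to 1989 CPM, which overlapped. The calls ranged from 1 without B6N replicate 2 to 14 without AKR replicate 3, with 8 without B6N replicate 3, and there were 2 with DESeq2, 11 with no count filter and 0 in the fit of all 14 libraries. Arc, Egr1 and Egr3, which mark recently active excitatory neurons, were not called, at -0.14, 0.07 and -0.04.

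Of 16 slower activity-dependent effectors 2 were called higher and 6 lower (median -0.14), a share of 50% beside 16.4% over all genes tested. Pcsk1, which processes peptide precursors, was at 119.9, 142 and 103 CPM in AKR and 175, 183 and 172 CPM in B6N (-0.54, SE 0.08, adjusted p = 3.28e-05). Sorcs3, a sorting receptor of the postsynapse, was at 68.7, 70.1 and 72.4 CPM against 89.2, 94.3 and 110.1 CPM (-0.47, SE 0.07, adjusted p = 3.28e-05). In both genes every AKR library lay under every B6N library. Bdnf and Homer1 were not called (-0.18 and -0.08). Without AKR replicate 1 or B6N replicate 2, 3 of the effectors were called lower, as in the fit of all 14 libraries. None was called higher without AKR replicate 2 or B6N replicate 2, and 1 without AKR replicate 1, B6N replicate 1 or B6N replicate 3, with DESeq2 and in the fit of all 14 libraries.

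Glucocorticoid response genes were called higher 3 times and lower 4 times among 19, a share of 36.8% beside 16.4% over all genes tested. Map3k6, a stress-activated kinase, was at 2.74, 3.35 and 3.56 CPM in AKR and 6.25, 6.8 and 9.11 CPM in B6N (-1.19, SE 0.17, adjusted p = 4.77e-05). Ddit4, an inhibitor of mTOR signalling, was lower too (-0.51, SE 0.13, adjusted p = 0.00777). Plin4, a lipid droplet coat protein, was higher at 24.9, 24.7 and 18.5 CPM against 13.3, 15.1 and 18.2 CPM (0.55, SE 0.12, adjusted p = 0.00286). The widely used readouts Fkbp5, Tsc22d3 and Sgk1 were not called, at -0.20, -0.05 and -0.12, nor was the receptor gene Nr3c1 (-0.15). Without B6N replicate 2 or B6N replicate 3, and with DESeq2, the lower calls came to 2. Among 24 chaperones, Hspa8, the constitutive HSP70, was lower at 747, 764 and 697 CPM in AKR against 1113, 1147 and 1249 CPM in B6N (-0.67, SE 0.05, adjusted p = 3.09e-09), and 44.8% of its 31-base stretches occur in other genes, so its value is uncertain. Hsp90ab1 was higher at 0.16 (SE 0.04), and the inducible Hspa1a and Hspa1b were not called (-0.42 and -0.08).

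Of 19 circadian clock genes 5 were higher in AKR and 2 lower, a share of 36.8% beside 16.4% over all genes tested. Per2, a repressor of the clock loop, was at 103, 116 and 110.2 CPM in AKR and 88.9, 93.1 and 84.5 CPM in B6N, without overlap (0.30, SE 0.06, adjusted p = 0.000573). Bhlhe41, a bHLH repressor, was at 45, 45 and 47.9 CPM against 32.8, 33.3 and 30.7 CPM (0.51, SE 0.06, adjusted p = 8.39e-06). Nfil3, which opposes the activators of the loop, was lower at -0.56 (SE 0.13, adjusted p = 0.00502). Arntl and Clock, the activators, were not called (-0.12 and -0.11), and the times at which tissue was taken are not in the labels. Without B6N replicate 2 the higher calls came to 2 and the lower calls to 1, and the latter also without AKR replicate 1 or in the fit of all 14 libraries. With no count filter 8 clock genes were called higher. Hypoxia-responsive genes, targets of HIF factors that also pair with ARNT proteins, were called higher in 2 and lower in 3 of 13 (38.5%). Pdk1, which restrains entry of pyruvate into mitochondria, was at 64.8, 66.2 and 63.5 CPM against 91.4, 91.6 and 105 CPM (-0.57, SE 0.06, adjusted p = 9.57e-07), and Egln3, an oxygen-sensing hydroxylase, was higher at 0.56 (SE 0.12, adjusted p = 0.0024). Vegfa and Slc2a1 were not called (0.13 and 0.05). The higher calls came to 1 with DESeq2 and without AKR replicate 1, AKR replicate 2, B6N replicate 2 or B6N replicate 3.

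Glo1, the enzyme that detoxifies methylglyoxal and that has been linked to anxiety-like behaviour in mice, was measured at 136, 141 and 131 CPM in AKR and 67.9, 74 and 73.5 CPM in B6N. The lowest AKR library was well above the highest B6N library, with a log2 difference of 0.92 (SE 0.05, adjusted p = 1.46e-10). Its neighbours on chromosome 17 were higher as well. Btbd9, whose lower boundary lies 369 kb to the left, was at 144, 136 and 140.1 CPM against 100.3, 111 and 109 CPM (0.39, SE 0.05, adjusted p = 1.48e-05). Dnah8, an axonemal dynein heavy chain whose lower boundary lies 39 kb to the right, was at 12.8, 12.1 and 13.1 CPM against 1.44, 1.33 and 2.58 CPM (2.83, SE 0.17, adjusted p = 3.56e-10). The ends of Glo1 and Dnah8 overlap on opposite strands. Exons on the opposite strand overlap 5.22% of the exonic sequence of Glo1 and 2.42% of that of Dnah8. Glp1r, the receptor for glucagon-like peptide 1, rested on 10, 13 and 22 counts in AKR and 0, 3 and 3 in B6N (2.87, SE 0.56, adjusted p = 0.00105). Rsph1 (670 kb) and Wdr4 (909 kb) were also higher in AKR, at 1.30 and 0.27. The other 15 of 21 tested genes in the plotted stretch were not called, among them Zfand3 at -580 kb (0.07) and Abcg1 at 473 kb (0.08). A duplicated segment around Glo1 is known to vary among inbred strains, and whether these mice carry it was not tested.

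**Figure D3:**
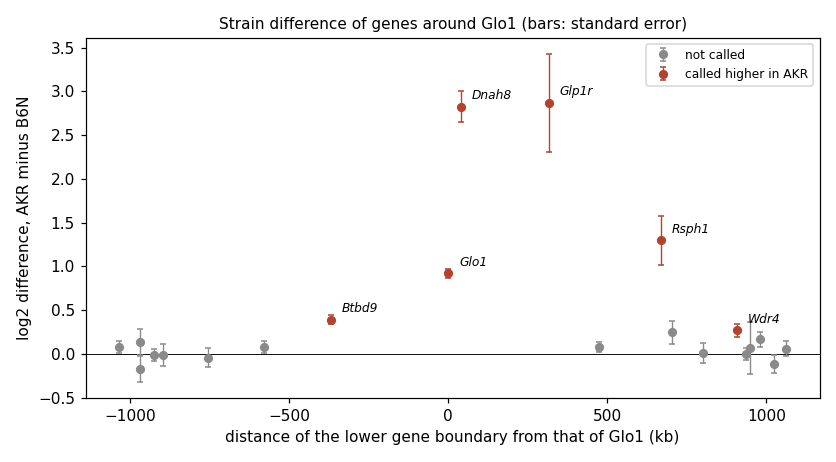
Log2 difference (AKR minus B6N, with its standard error as a bar) of the 21 tested genes around Glo1 against the distance of their lower boundary from that of Glo1 in kb. Called genes, all higher in AKR, are in red and named, with Dnah8 and Glp1r highest at 2.83 and 2.87.

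Cholesterol genes had a median of -0.20, and 50% were called, beside 16.4% over all genes tested. The calls went in 1 direction only, with 10 of 20 lower in AKR and none higher. Soat1, which esterifies cholesterol and is the gene of the adrenal lipid depletion trait of AKR mice, was at 32.7, 35.1 and 33.4 CPM in AKR and 59, 59.8 and 58.2 CPM in B6N. The strains were far apart (-0.81, SE 0.06, adjusted p = 6.21e-09). Enzymes of cholesterol synthesis were lower by less. Msmo1, a sterol demethylation enzyme, was at 71, 68.9 and 67.3 CPM against 86.6, 96.8 and 93.4 CPM (-0.42, SE 0.06, adjusted p = 1.73e-05). Hmgcs1, an early enzyme of the pathway, stood at -0.26 (SE 0.05). Insig1, the sterol sensor that holds back synthesis, was at 64.3, 55.5 and 63 CPM against 77, 79.9 and 88.6 CPM (-0.43, SE 0.07, adjusted p = 0.000106). Cyp46a1, the neuronal enzyme that removes cholesterol from the brain, was lower at -0.29 (SE 0.05, adjusted p = 0.000522). Also called lower were Idi1 (-0.33), Fdft1 (-0.24) and Npc1 (-0.20), and Apoe was not called (0.04). The number called lower stayed between 8 and 12 when 1 library was left out.

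Nnt, a mitochondrial enzyme gene known to be defective in the related substrain C57BL/6J, was at 52.1, 50.3 and 50.1 CPM in AKR and 53.1, 55.2 and 48.2 CPM in B6N, which overlapped (-0.04, SE 0.06, adjusted p = 0.762). Slc7a11, the cystine-glutamate exchanger, was at 51.1, 51.4 and 58.2 CPM in AKR and 129.6, 135 and 134 CPM in B6N. The strains did not overlap (-1.31, SE 0.06, adjusted p = 2.08e-12). The polyubiquitin gene Ubb was at 167, 179.9 and 173 CPM against 353, 353 and 366 CPM (-1.04, SE 0.04, adjusted p = 1.33e-12), with 50.3% of its 31-base stretches shared with other genes.

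Markers of deep and upper cortical layers were taken as separate lists, and the difference between the lists was not tested. Of 17 tested deep layer markers 9 were lower in AKR and 1 was higher, a share of 58.8% beside 16.4% over all genes tested. Their median was -0.29. Crym, a thyroid hormone binding protein of deep layer neurons, was at 43.3, 39.7 and 46.6 CPM in AKR and 57.4, 68.7 and 72.1 CPM in B6N (-0.61, SE 0.08, adjusted p = 1.14e-05). Tle4, a corepressor of corticothalamic neurons, was at 63, 65.6 and 62.7 CPM against 76.9, 87.8 and 79.1 CPM (-0.35, SE 0.06, adjusted p = 0.000254). Neither gene overlapped between the strains. Ccn2, a matrix protein of the deepest layer, was lower at -0.84 (SE 0.12, adjusted p = 3.59e-05), with 23.2% of its exonic sequence overlapping an exon on the opposite strand. Pou3f1 was higher at 21.6, 24.2 and 23.3 CPM against 16.6, 16.5 and 14.2 CPM (0.55, SE 0.09, adjusted p = 0.000151), and Fezf2 and Bcl11b, which specify subcerebral projection neurons, were not called (-0.15 and -0.12). Summed over the list, AKR libraries held 773 to 816 CPM and B6N libraries 859.6 to 941 CPM. The number called lower was 5 without AKR replicate 2, without B6N replicate 2 and in the fit of all 14 libraries.

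Upper layer markers were called higher in 4 of 14 and lower in 1, a share of 35.7% beside 16.4% over all genes tested. Cux2, a transcription factor of upper layer neurons, was at 175, 169 and 191 CPM in AKR and 152, 138 and 147 CPM in B6N (0.29, SE 0.05, adjusted p = 0.000536), while 1 of the markers was called higher without B6N replicate 2 and 2 without AKR replicate 1 or with DESeq2. Rspo1, a WNT agonist, was the lower one at 2.89, 2.93 and 2.03 CPM against 8.45, 4.06 and 4.02 CPM (-1.08, SE 0.26, adjusted p = 0.00665). Of 10 genes of excitatory neurons at large 2 were called higher and 1 lower (30%), with a median of 0.00. Without AKR replicate 1, AKR replicate 3, B6N replicate 2 or B6N replicate 3, 1 was called higher and none lower. Camk2a (0.01) and Slc17a7 (0.05) were not called. Nrgn, a postsynaptic calmodulin-binding protein, was higher at 206, 213 and 225 CPM against 189, 181 and 157 CPM (0.29, SE 0.06, adjusted p = 0.00144).

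Astrocyte genes were called lower 7 times and higher 2 times among 24, a share of 37.5% beside 16.4% over all genes tested. Etnppl, an astrocyte enzyme that degrades phosphoethanolamine, was at 4.0, 4.53 and 4.58 CPM in AKR and 29.4, 32.9 and 31.9 CPM in B6N (-2.84, SE 0.10, adjusted p = 1.06e-13). Slc1a2, the main glutamate transporter, was at 3252, 3224 and 3139.6 CPM against 3957, 3843 and 3926 CPM (-0.29, SE 0.03, adjusted p = 5.81e-06). Aqp4, the water channel of astrocyte endfeet, was lower at -0.37 (SE 0.06), without overlap. Gfap and Slc1a3 were not called (0.10 and 0.02). None of the list was called higher without AKR replicate 1, AKR replicate 2 or B6N replicate 2, and 1 without AKR replicate 3 or B6N replicate 3, with DESeq2 and in the fit of all 14 libraries. Summed over the list, AKR libraries held 7010.3 to 7303 CPM and B6N libraries 7982 to 8263 CPM.

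Of 21 myelin and oligodendrocyte genes 7 were lower in AKR and none was higher, a share of 33.3% beside 16.4% over all genes tested. Their median was -0.25. Apod was at 38.6, 39.7 and 38.6 CPM in AKR and 51.3, 47 and 47.9 CPM in B6N (-0.32, SE 0.06, adjusted p = 0.000844), and Mobp, a compact myelin protein, at 179, 194 and 151 CPM against 276, 235 and 191 CPM (-0.42, SE 0.10, adjusted p = 0.00407). Mobp overlapped between the strains, since AKR replicate 2 was above B6N replicate 3. Summed levels overlapped too, at 1609 to 1910.3 CPM in AKR and 1750.1 to 2336 CPM in B6N. The count called lower was 1 with DESeq2, 4 without AKR replicate 3 or B6N replicate 1 and in the fit of all 14 libraries, 11 with no count filter or a replicate block, and 12 without B6N replicate 3. Mbp and Mog were not called (-0.10 and -0.02). Among 11 genes of oligodendrocyte precursors, Bcas1, a marker of newly forming oligodendrocytes, was lower at 31.6, 26.7 and 24.9 CPM against 46.3, 39.6 and 33.6 CPM (-0.52, SE 0.10, adjusted p = 0.000976), as was Enpp6, a marker of the same stage (-0.86, SE 0.16, adjusted p = 0.000587). The precursor markers Pdgfra and Cspg4 were not called (0.13 and -0.00).

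Microglial genes were called in both directions, 6 of 23 higher and 5 lower, a share of 47.8% beside 16.4% over all genes tested. Their summed level was 413 to 434 CPM in AKR and 417 to 447 CPM in B6N. P2ry12, the nucleotide receptor of resting microglia, was at 46.4, 48.6 and 46.1 CPM in AKR and 29.3, 28.1 and 31.8 CPM in B6N (0.66, SE 0.07, adjusted p = 4.12e-07), and Aif1, which encodes IBA1, at 8.07, 7.11 and 9.96 CPM against 3.43, 4.2 and 3.66 CPM (1.15, SE 0.16, adjusted p = 2.18e-05). Mpeg1, a pore-forming protein of phagosomes, was at 2.74, 2.58 and 2.98 CPM in AKR and 16.4, 16.9 and 17.4 CPM in B6N (-2.61, SE 0.12, adjusted p = 7.63e-12), and Fcrls, a microglial receptor, at 3.85, 4.88 and 4.87 CPM against 17, 17.7 and 17.6 CPM (-1.94, SE 0.12, adjusted p = 2.34e-10). In these 4 genes no library overlapped with the other strain. Cx3cr1 and Csf1r were not called (0.03 and -0.08), and without B6N replicate 2, or with DESeq2, the lower calls of the list came to 3.

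The subunits of C1q, which starts the classical complement pathway and tags synapses, were all lower in AKR. C1qa was at 17.9, 17.4 and 18.8 CPM in AKR and 27.2, 27.4 and 29.1 CPM in B6N (-0.63, SE 0.08, adjusted p = 5.39e-06), C1qb stood at -1.18 (SE 0.11) and C1qc at -1.13 (SE 0.09). C4a was higher at 1.68 (SE 0.15) and C4b lower at -0.55 (SE 0.11), and since 43.3% and 48.3% of their 31-base stretches occur in other genes, both values are uncertain. Of 18 tested genes of MHC class I and peptide loading, 8 were lower in AKR and none was higher (44.4%, beside 16.4% over all genes tested). H2-D1 was at 3.85, 3.97 and 3.49 CPM in AKR and 25.9, 24.6 and 22.3 CPM in B6N (-2.68, SE 0.11, adjusted p = 1.33e-12) and H2-K1 at 3.04, 2.79 and 3.34 CPM against 14.4, 14.1 and 13.5 CPM (-2.19, SE 0.13, adjusted p = 1.54e-10). The strains carry different H2 haplotypes, and 26.9% and 22.8% of the stretches of these genes occur in other genes. Whether reads of the AKR alleles were lost or counted elsewhere was not tested. B2m, the invariant light chain outside the H2 region, was lower too, at 20.8, 24.2 and 24.1 CPM against 34.8, 36.9 and 35.3 CPM (-0.63, SE 0.07, adjusted p = 3.84e-06). Of 21 interferon response genes 1 was higher and 4 lower, a share of 23.8%. The lower calls came to 2 without AKR replicate 2, AKR replicate 3 or B6N replicate 2 and with a filter of 1 CPM, and to 1 with DESeq2. Stat2 was higher (0.44, SE 0.08, adjusted p = 0.000445) and Trim30a lower (-1.02, SE 0.20, adjusted p = 0.00117).

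Vascular genes were called both ways. Among 20 endothelial genes 5 were higher and 2 lower, a share of 35% beside 16.4% over all genes tested. Slco1a4, a barrier transporter, was at 85.2, 85.5 and 85.8 CPM in AKR and 65.3, 66.4 and 73.7 CPM in B6N (0.32, SE 0.06, adjusted p = 0.000388). Vwf, a clotting factor of larger vessels, was lower at 21.3, 22.7 and 23.9 CPM against 36.2, 29.2 and 29 CPM (-0.48, SE 0.09, adjusted p = 0.000675). Of 17 mural and meningeal genes tested, 3 were higher and 4 lower, a share of 41.2%, with a median of -0.18. The smooth muscle genes Acta2 and Myh11 were lower at -0.87 (SE 0.12) and -0.67 (SE 0.12). Rgs5 and Col3a1, genes of pericytes and fibroblasts, were higher at 0.26 (SE 0.05) and 0.69 (SE 0.14). Myoc (-2.26) and Vtn were lower, and the call of Vtn (adjusted p = 0.0484) ended in 9 of 12 alternatives. With 1 library left out, the higher calls of this list ranged from 2 to 4 and the lower from 3 to 5. Pecam1 and Cdh5 were not called (-0.17 and 0.03). The endothelial genes called higher were 2 without B6N replicate 2 or with DESeq2 and 3 without AKR replicate 2, AKR replicate 3 or B6N replicate 3. Called lower was 1 with DESeq2 and without AKR replicate 1, AKR replicate 2, B6N replicate 2 or B6N replicate 3.

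**Figure D4:**
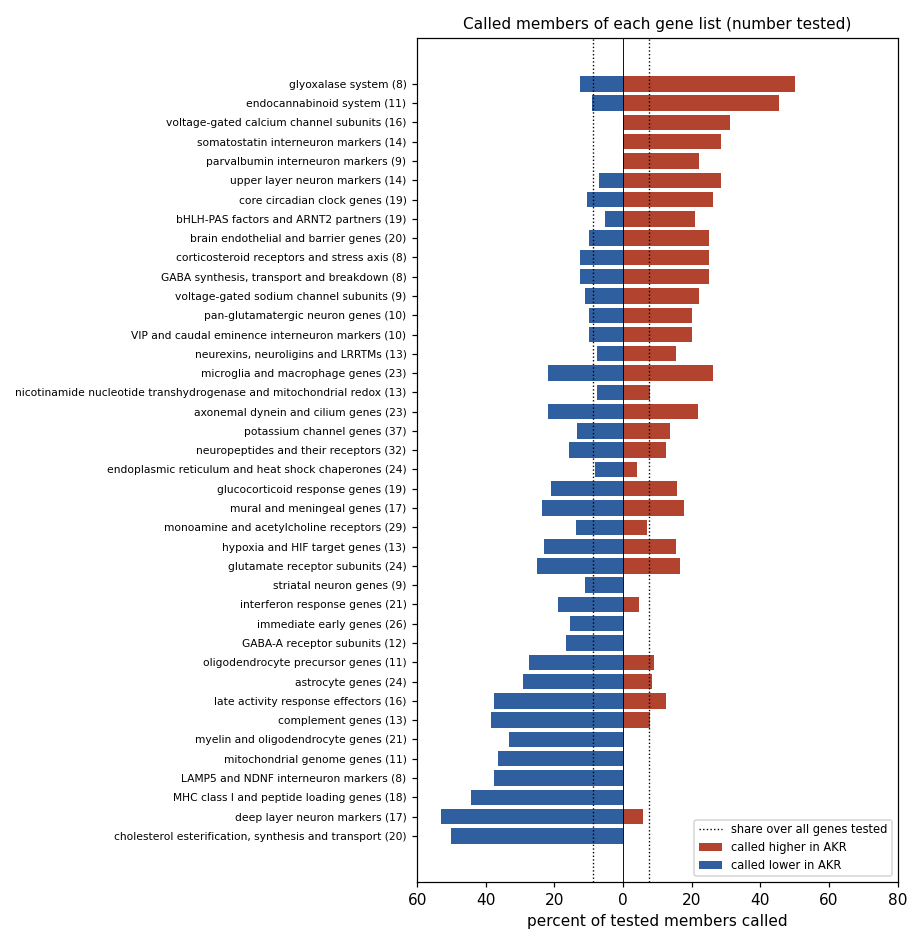
Share of tested members called higher in AKR (red, to the right) and lower (blue, to the left) for the gene lists with at least 8 tested members, whose number stands in brackets, with the shares over all genes tested (7.5% and 8.86%) as dotted lines. Cholesterol genes, deep layer markers and MHC class I genes reach furthest to the left with 10 of 20, 9 of 17 and 8 of 18. The small glyoxalase list reaches furthest to the right with 4 of 8. That list includes neighbours of Glo1 on chromosome 17, among them Btbd9 and Glp1r, so its calls do not describe the glyoxalase enzymes alone.

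Axonemal dyneins and cilium genes, which brain tissue expresses at low levels outside the ventricle lining, held some of the widest differences. Dnah6 was at 15.6, 14.6 and 15.4 CPM in AKR and 1.79, 1.75 and 1.29 CPM in B6N (3.23, SE 0.15, adjusted p = 3.54e-12). Cfap54, a protein of the central ciliary apparatus, was at 113, 106 and 116 CPM against 24.2, 25.2 and 25 CPM (2.17, SE 0.06, adjusted p = 2.24e-15). Both genes separated the strains without overlap. Dnah7a was higher (2.21, SE 0.16) and its near copy Dnah7b lower (-1.01, SE 0.12), with 54.2% and 40.1% of their stretches shared with other genes, so their values are uncertain. In all, 5 of 23 were higher and 5 lower, a share of 43.5% beside 16.4% over all genes tested. The ependymal factor gene Foxj1 was not called, at 1.18 ± 0.113 CPM in AKR against 1.98 ± 0.493 CPM in B6N (SD, n = 3).

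Hemoglobin genes, whose RNA in brain tissue comes mainly from red cells, include near-identical copies. Hba-a2 had 2, 4 and 1 counts in AKR and 174, 115 and 109 in B6N, a ratio of 55.1 in favour of B6N with a 95% counting interval of 26.5 to 138. Hba-a1 was at 10.4, 10.9 and 14 CPM in AKR and 15.9, 10.9 and 13 CPM in B6N and was not called (-0.18). Their annotated coding sequences of 426 bases differ at 1 base, in capitals in the stretch from position 352 to 411, counted from 1 at the start codon and taken from GENCODE M21.
Hba-a1 coding: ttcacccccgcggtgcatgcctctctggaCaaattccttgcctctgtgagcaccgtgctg
Hba-a2 coding: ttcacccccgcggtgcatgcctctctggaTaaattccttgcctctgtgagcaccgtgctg
Summed over both genes the level was 10.5, 11.2 and 14 CPM in AKR and 27.8, 18.9 and 20.8 CPM in B6N. The beta chain gene Hbb-bs was at 23.8, 22.2 and 28.5 CPM in AKR and 54, 48.1 and 45.9 CPM in B6N (-0.99, SE 0.09, adjusted p = 5.14e-08), and 54.4% of its stretches are shared. Summed over all 5 genes of the list, Alas2 included, AKR libraries held 35.2 to 46.2 CPM and B6N libraries 76.8 to 97.9 CPM. Counting intervals cover counting error only.

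Pttg1, which encodes securin, the inhibitor of chromatid separation, stood furthest below B6N among the genes of established name with a mean of at least 5 CPM. Its RefSeq promoter window (GRCm38.p6, chr11:43425932-43426231, minus strand) holds 1 match to ACGTG, in capitals.
Pttg1 promoter: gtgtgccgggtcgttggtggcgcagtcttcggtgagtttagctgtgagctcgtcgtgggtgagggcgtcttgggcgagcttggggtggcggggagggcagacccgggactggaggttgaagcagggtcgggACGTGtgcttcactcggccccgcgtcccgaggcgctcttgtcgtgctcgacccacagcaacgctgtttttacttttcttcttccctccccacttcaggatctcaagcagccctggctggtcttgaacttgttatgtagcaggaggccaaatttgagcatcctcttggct
Each AKR library had 2 counts of Pttg1, while B6N libraries had 174, 229 and 172. The summed counts gave a ratio of 92.9 in favour of B6N, with a 95% counting interval of 42.4 to 254. The naive libraries gave a log2 difference of -6.19 beside -6.46 after OFL. Next among genes lower in AKR were Vill, an actin-binding protein of the villin family, with 0.741, 0.976 and 0.799 CPM in AKR and 10.6, 10.9 and 12.7 CPM in B6N (-3.74, SE 0.18), the beta globin gene Hbb-bt (-3.44, with 59.4% of its stretches shared), and Myo7a, an unconventional myosin of hair cells, with 2.96, 3.21 and 2.98 CPM against 31.9, 29.8 and 32.3 CPM (-3.36, SE 0.11). Hjurp, a centromere chaperone, was at 20.6, 17.6 and 17 CPM against 75.8, 71.1 and 78.4 CPM (-2.03, SE 0.07), and Akr1e1, an aldo-keto reductase, stood at -2.55 (SE 0.13). These genes were picked among called genes without overlap between the strains, so their lack of overlap was set in advance.

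Among genes of established name with a mean of at least 5 CPM that were higher in AKR without overlap, the widest differences were those of Tuba1c (5.02, SE 0.18), Eif3j2 (4.88), Eno1b (4.35), Dnah6 and Tagap (3.09, SE 0.18). Of the stretches of Tuba1c, Eif3j2, Eno1b and Tagap, 55.3%, 94.9%, 89.2% and 63.4% are shared with other genes, and these values are uncertain. Itga11, a collagen-binding integrin, shares 0.315% and was at 12.4, 14.4 and 13.2 CPM in AKR and 1.85, 1.89 and 1.0 CPM in B6N (3.06, SE 0.17, adjusted p = 8.26e-11). Serpina3n, a protease inhibitor induced in reactive astrocytes, was at 17.8, 15.2 and 20.4 CPM against 6.32, 5.53 and 5.88 CPM (1.59, SE 0.12, adjusted p = 1.32e-08). Alad and Hdhd3, neighbours on chromosome 4, were higher together. Alad, an enzyme of heme synthesis, was at 44.7, 43.8 and 47.4 CPM against 16.3, 15.6 and 14.1 CPM (1.56, SE 0.07, adjusted p = 9.38e-12) and Hdhd3 at 9.55, 7.53 and 7.78 CPM against 2.54, 2.8 and 3.01 CPM (1.57, SE 0.16, adjusted p = 3.89e-07). Invs, a ciliary protein of left-right patterning, and Pomt1, an O-mannosyltransferase, were at 1.51 (SE 0.07) and 1.44 (SE 0.07).

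Called genes lay on every chromosome, with the highest shares on chromosomes 4 (22%), 17 (21.2%) and 18 (20.3%) among the autosomes and the lowest on 10 (11.2%) and 16 (11.5%), and 11.2% on X. Over 251 windows of 10 Mb with at least 20 tested genes, the share called ranged from 0% to 53.5% with a median of 14.7%. The richest window, on chromosome 12 from 20000001 to 30000000, had 23 of 43 genes called, 7 higher and 16 lower. It held Id2 and also Pxdn, a matrix peroxidase, at 57, 47 and 52.7 CPM in AKR and 103, 114 and 107 CPM in B6N (-1.05, SE 0.07, adjusted p = 4.49e-10), Mboat2 (-0.38) and Kidins220 (-0.29). Next came the window from 50000001 to 60000000 on chromosome 7 with 34 of 83 called, which holds Gabrg3, and the first 10 Mb of chromosome 9 with 10 of 25. There Trpc6, a cation channel, was at 30.0, 25.6 and 32.1 CPM against 58.9, 65.2 and 73.3 CPM (-1.17, SE 0.08, adjusted p = 4.75e-09).

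Promoter windows were searched for some of the letters that bHLH-PAS pairs and CREB bind. Other letters bound by bHLH-PAS pairs were not searched. RefSeq gave a promoter window of 300 bases for 11637 of the tested genes, matched by symbol. ACGTG, on either strand, occurred in 19.6% of all 32851 windows and in 28.3% of the tested genes. Of the genes with it 16.6% were called, against 17.1% without it. For CACGTG, which contains ACGTG, the shares called were 16.6% with and 17% without, and for TGACGTCA they were 16.4% and 17%. A match is a description of these letters and not a binding site.

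Most of the strain difference after OFL was also present in naive mice. Of 2749 genes called after OFL and tested in naive mice, 2041 were called in the same direction there, where 37.8% of the genes tested were called. The test of the difference between the strain differences (OFL minus naive, all 14 libraries) called 374 of the 2943 genes, against 5.15% of all 20291 genes it tested. The 2943 genes were chosen by their difference in the same OFL libraries that enter this test. That choice raises their share in advance, so no conclusion is drawn from the comparison. RNA classes also differed between the OFL and naive libraries, with Malat1 at 0.773% to 0.833% of counts after OFL and 0.0895% to 0.107% in naive libraries, so conditioning and library set cannot be told apart. Mfsd2a, the lipid transporter of the blood-brain barrier, turned from -0.69 in naive mice to 0.41 after OFL, and the difference was 1.11 (SE 0.11, adjusted p = 3.49e-07). After OFL its levels were 22, 25.4 and 24 CPM in AKR and 16.5, 18.3 and 19.2 CPM in B6N. Per2 went from -0.35 to 0.30, a difference of 0.66 (SE 0.08, adjusted p = 2.47e-06). Slc7a11 was lower in AKR in both sets, by more after OFL (-0.58 against -1.31, difference -0.72, SE 0.07, adjusted p = 1.32e-07). Insig1 and Hmgcs1 stood near 0 in naive mice, at 0.03 and -0.01, and the difference was -0.45 (SE 0.09, adjusted p = 0.00163) and -0.23 (SE 0.06, adjusted p = 0.0158). Cacna1c was lower in naive AKR (-0.26) and near 0 after OFL, with a difference of 0.31 (SE 0.07, adjusted p = 0.00937). Grin2b was lower in AKR in both sets, by less after OFL (-0.74 against -0.36, difference 0.39, SE 0.06, adjusted p = 8.66e-05). For Sst, Pvalb, Vip, Glo1 and Soat1 the test of the difference did not pass (adjusted p = 0.479, 0.636, 0.639, 0.978 and 0.719).

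**Figure D5:**
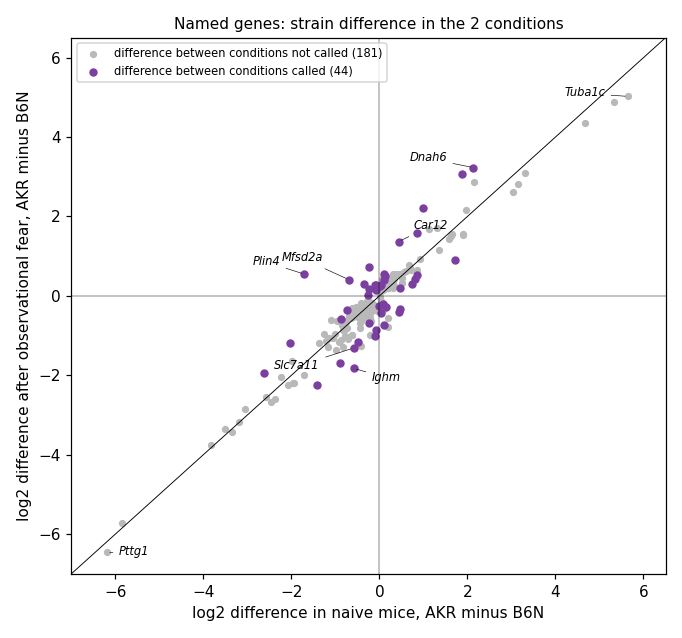
Log2 difference (AKR minus B6N) after OFL against that in naive libraries for 225 named genes, with the 44 genes called in the test of the difference in colour and the other 181 in grey. Most points lie near the diagonal, and Plin4 and Mfsd2a stand apart with values of opposite sign in naive and OFL libraries. The test of the difference called 5.15% of all 20291 genes it tested. Some of the plotted genes were named because this test called them, and many because they were called after OFL. The count of 44 is therefore raised in advance, and no conclusion is drawn from it.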

How the data were processed

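RNA was measured in tissue of the anterior cingulate cortex. Libraries were made with a TruSeq kit from Trizol-extracted total RNA, per the labels. Tools named in the submitters' processing notes are TopHat2 2.1.1, HTSeq, cutadapt 2.7, CASAVA and edgeR, with the build GRCm38. An annotation release is not given in the sources used here. The authors deposited raw counts per Ensembl gene, and these counts were the input. GRCm38 comes from a C57BL/6J mouse, and the effect of AKR variants on the counts was not tested.

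Genes passed edgeR's filter by group, leaving 17994 of 53465. Differences were tested with edgeR 4.0.16 in R 4.3.3 (TMM scaling, quasi-likelihood F-test, two-sided, Benjamini-Hochberg adjustment over all genes tested, called at an adjusted p under 0.05). SE is the log2 difference divided by the root of F. Levels are TMM-scaled CPM (counts scaled to library size), given for replicates 1, 2 and 3 of a strain in that order. The difference between the strain differences came from 1 fit of all 14 libraries. Totals of 13487311 to 14526253 counts and a common biological coefficient of variation of 0.0456 set the precision. The tests were tried on simulated counts. Alternatives were DESeq2 1.42.0, upper-quartile factors, no filter, a filter of 1 CPM in 3 libraries, all 14 libraries in 1 fit, a replicate block, and leaving out each library.

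The comparison and the gene lists were chosen with earlier results of these data known. The rule for named genes took 9 fixed genes, the 15 widest differences and 10 smallest p in each direction among called genes of at least 5 CPM without overlap (predicted-gene, clone, Rik and pseudogene names left out), up to 6 called members of each list, the 8 widest in each direction in the test of the difference, and up to 4 genes in each of the 3 windows of 10 Mb with the highest share called. List members that were not called, and some called members beyond that number, were named after their values were seen. Lists are described by counts and medians without a test. Some members of the lists are counted but not reported by name here. Names and positions are from GENCODE M21 (GRCm38), and 105 of the 53465 identifiers in the count table had no name. Shared sequence was counted as stretches of 31 bases found in transcripts of other genes. Whether counting used strand is not known, so overlap with exons of the other strand is given where it is wide. Promoter windows are from RefSeq (GRCm38.p6).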

Additional observations from a re-analysis of the deposited data

Results flagged for a closer look

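For 16 genes that were called after OFL and had a mean of at least 5 CPM, the strain difference after OFL differed from that in naive libraries by the test of the difference itself (edgeR, all 14 libraries, OFL minus naive). These are the 8 widest in each direction, and conditioning and library set cannot be told apart for any of them. For Plin4 the difference was 2.26 on the log2 scale (adjusted p = 2.4e-08), from -1.70 in naive libraries to 0.55 after OFL. Mfsd2a turned in the same way (1.11, adjusted p = 3.49e-07). Bc1, a neuronal noncoding RNA not tested in the naive libraries alone, gave 1.53 (adjusted p = 0.0434), and 42% of its 31-base stretches occur in other genes. Itga11 (1.20), Dnah6 (1.11) and Car12 (0.94), a carbonic anhydrase gene, were higher in AKR in both sets and by more after OFL. Fv1, a retroviral restriction gene, gave 0.97. The near copies Dnah7a and Dnah7b gave 1.24 and -0.90.

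Ighm, an immunoglobulin heavy chain gene (-1.23, adjusted p = 2.59e-05), Myoc (-0.84) and the iodide transporter gene Slc5a5 (-0.79) were lower in AKR in both sets and by more after OFL. Aspa, an oligodendrocyte enzyme (-0.85), the kinase gene Hunk (-0.77) and Zfp619 (-0.81) were lower after OFL only. In naive libraries Aspa and Hunk stood at 0.45 and 0.46, and Zfp619 was not called (0.10). Vmn2r87, a vomeronasal receptor gene that shares 56.1% of its stretches with other genes, was higher in AKR in both sets and by less after OFL (-0.80). The call of Aspa after OFL ended in 8 of 12 alternatives, up to an adjusted p of 0.226, and that of Hunk without AKR replicate 2 (0.0649) or B6N replicate 1 (0.0607) and in the fit of all 14 libraries (0.0537). Groups of 3 libraries were not tested for single outlying samples.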

How the results depend on the processing

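Counts of called genes were within 1.5 times the main count under DESeq2 (2038 in all), upper-quartile factors (2978), no count filter (3547), a filter of 1 CPM in 3 libraries (2844) and a fit of all 14 libraries (3317), except that the genes called and at least 2-fold lower numbered 550 with no count filter against 353. Leaving out 1 library gave 813 to 1692 genes higher and 1121 to 1822 lower, and 257 to 317 at least 2-fold higher and 338 to 369 at least 2-fold lower. The fewest calls came without B6N replicate 2. The test of the difference between the strain differences gave 500 to 785 genes higher and 207 to 281 lower in these fits, against 732 and 312. With a replicate block the calls numbered 3021 (1391 higher, 1630 lower). Same-numbered libraries had correlations of their deviations of 0.140, 0.064 and -0.081 across genes, and AKR replicate 2 correlated best with B6N replicate 3 (0.177), so the numbers were not taken to pair the libraries.

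Of 2709 values of 226 named genes under 12 alternatives, 2445 kept direction and side of the threshold, 261 lost the call, 1 gained it and 2 changed sign, both of genes not called. Nnt stood at 0.0049 (adjusted p = 0.981) without B6N replicate 2 and at -0.0905 without B6N replicate 3. Cacna1c stood at -0.0138 (adjusted p = 0.914) without AKR replicate 3 and at 0.0779 without AKR replicate 2. Calls were lost in 54 named genes without B6N replicate 2, 42 with DESeq2 and 41 without AKR replicate 1. Simulated counts of this comparison held 200 changed genes among 17994, drawn from genes above a count minimum. Of these, 99% of 2-fold and 96% of 1.5-fold changes were recovered, and 6.25% of the calls were false. Smaller changes and changes at low counts were not simulated, while 61.1% of the called genes differed by less than 1.5-fold. The recovery rates therefore do not cover most of the calls.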
